A study of Mus musculus with 8 samples.

Results

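CXC chemokines are small secreted proteins that direct the movement of leukocytes, and the 10 described here were taken by gene name from the count table of 54532 genes. They are the neutrophil attractants Cxcl1, Cxcl2, Cxcl3 and Cxcl5, the interferon-induced Cxcl9, Cxcl10 and Cxcl11, the constitutively made Cxcl12 and Cxcl14, and Cxcl16, which is also made as a membrane-anchored form. Tumors were grown from 4T1-FLuc cells, a mouse TNBC line that carries firefly luciferase, under the skin of immunocompetent female BALB/cJ mice aged 6 weeks. The 4 treated mice received mAb-DXd/IMQ, a DualADC whose CD276 antibody carries the TOP1 inhibitor DXd and the TLR7 and TLR8 agonist IMQ, in 5 courses of 16 mg/kg with 4 days between courses, and the 4 control mice received saline by title, although their treatment field names PBS. Tumors were taken at the study endpoint. The paper reports that treated tumors were then much smaller on average than saline tumors, with extensive cell death in stained tissue. The part of tumor size and cell death in the values below was not tested. Bulk RNA-seq gave 45019927 to 69582375 counts per saline tumor and 34591912 to 51625237 per mAb-DXd/IMQ tumor, and total counts overlapped between the groups (two-sided exact permutation test of 4 against 4 tumors, p = 0.171, smallest possible p = 0.0286). Levels are given as CPM, counts scaled to library size with TMM factors, and 3 counts were worth 0.0439 to 0.0843 CPM, a floor that covers counting error only.

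CXC chemokines act through receptors of the G protein-coupled family. Those of the neutrophil-attracting class bind Cxcr2 and are switched on by inflammatory signals such as interleukin-1 and NF-kB, and the interferon-induced class binds Cxcr3 on activated T cells and NK cells. In mouse mammary tumors, both cancer cells and infiltrating myeloid cells are known sources of these proteins, and Cxcl12 is mostly a product of stromal fibroblasts.

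The label of the tissue was read against marker genes. The epithelial genes Epcam, Krt8 and Krt18 had 374 ± 121, 654 ± 35.6 and 637 ± 37.1 CPM (SD, n = 4) in saline tumors. Of the receptors that define TNBC by their absence at the protein level, Pgr had 0.367 ± 0.281 CPM, Esr1 19.1 ± 1.14 CPM and Erbb2 102 ± 19.7 CPM (SD, n = 4) in the same tumors, so the RNA of Esr1 and Erbb2 was measurable in these mixed tissues. Saline tumors 1 and 2 differed most within their group. The summed level of 10 macrophage and monocyte markers was 1229, 6483, 2907 and 3549 CPM in saline tumors 1 to 4, led by Lyz2, and it was 3634, 2648, 3322 and 2499.6 CPM in mAb-DXd/IMQ tumors 1 to 4. Saline tumor 2 was thus above, and saline tumor 1 below, every other tumor in this sum, though not in each marker. Mrc1 was higher in every saline tumor (103.7 to 360.4 CPM) than in any treated tumor (72.0 to 82.8 CPM), and Ly6c2 was lower (1.47 to 4.20 against 5.30 to 5.98 CPM). Saline tumor 2 also had the lowest level among saline tumors for 7 of the 10 chemokines, and saline tumor 1 the highest for 6. Values without these tumors are therefore given for several of the results that they move. The part of cell content in these differences was not tested.

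All 10 chemokines passed the filter on low counts that kept 18511 genes. With edgeR's quasi-likelihood test, 0 of the 10 differed between mAb-DXd/IMQ and saline tumors at an FDR of 0.05 and an absolute log2 fold change above 0.58, where 1.06% of all tested genes passed. Groups without overlap occurred for 0 of the 10, against 13.1% of tested genes. An unadjusted p under 0.05 was found for 3 of the 10, Cxcl1, Cxcl2 and Cxcl5, against 18.9% of tested genes. DESeq2, limma-voom and edgeR's likelihood ratio test each called 0 of the 10 as well, with 2, 0 and 3 at an unadjusted p under 0.05. Over all 18511 tested genes, these tests called 787, 174 and 685, against 197 with the quasi-likelihood test. Calls by each test in the lists below are to be read against its own total. Of the fold changes, 5 were positive and 5 negative with a median log2 value of -0.11, and the median over all tested genes was 0.02. Summed counts of the 10 chemokines took 0.0631% to 0.0758% of all counts in saline tumors and 0.0663% to 0.0710% in mAb-DXd/IMQ tumors.

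The chemokines covered a wide range of abundance when counts were divided by gene length. Over the 8 tumors, the mean level per kilobase was 94.2 CPM for Cxcl14, 55.7 CPM for Cxcl9, 43.3 CPM for Cxcl16, 25.8 CPM for Cxcl10, 24.7 CPM for Cxcl11 and 23.2 CPM for Cxcl1. It was 6.48 CPM for Cxcl5, 3.73 CPM for Cxcl2, 0.896 CPM for Cxcl3 and 0.815 CPM for Cxcl12. Neighbors in this order were often closer than their spread, since Cxcl10, Cxcl11 and Cxcl1 had 21.9 ± 9.60, 23.1 ± 13.3 and 32.8 ± 26.0 CPM per kilobase (SD, n = 4) in saline tumors, and Cxcl3 and Cxcl12 had 0.809 ± 0.774 and 0.883 ± 0.238. Cxcl14 ranked above 97.4% of the tested genes per kilobase and Cxcl12 above 25.7%.

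**Figure D1:**
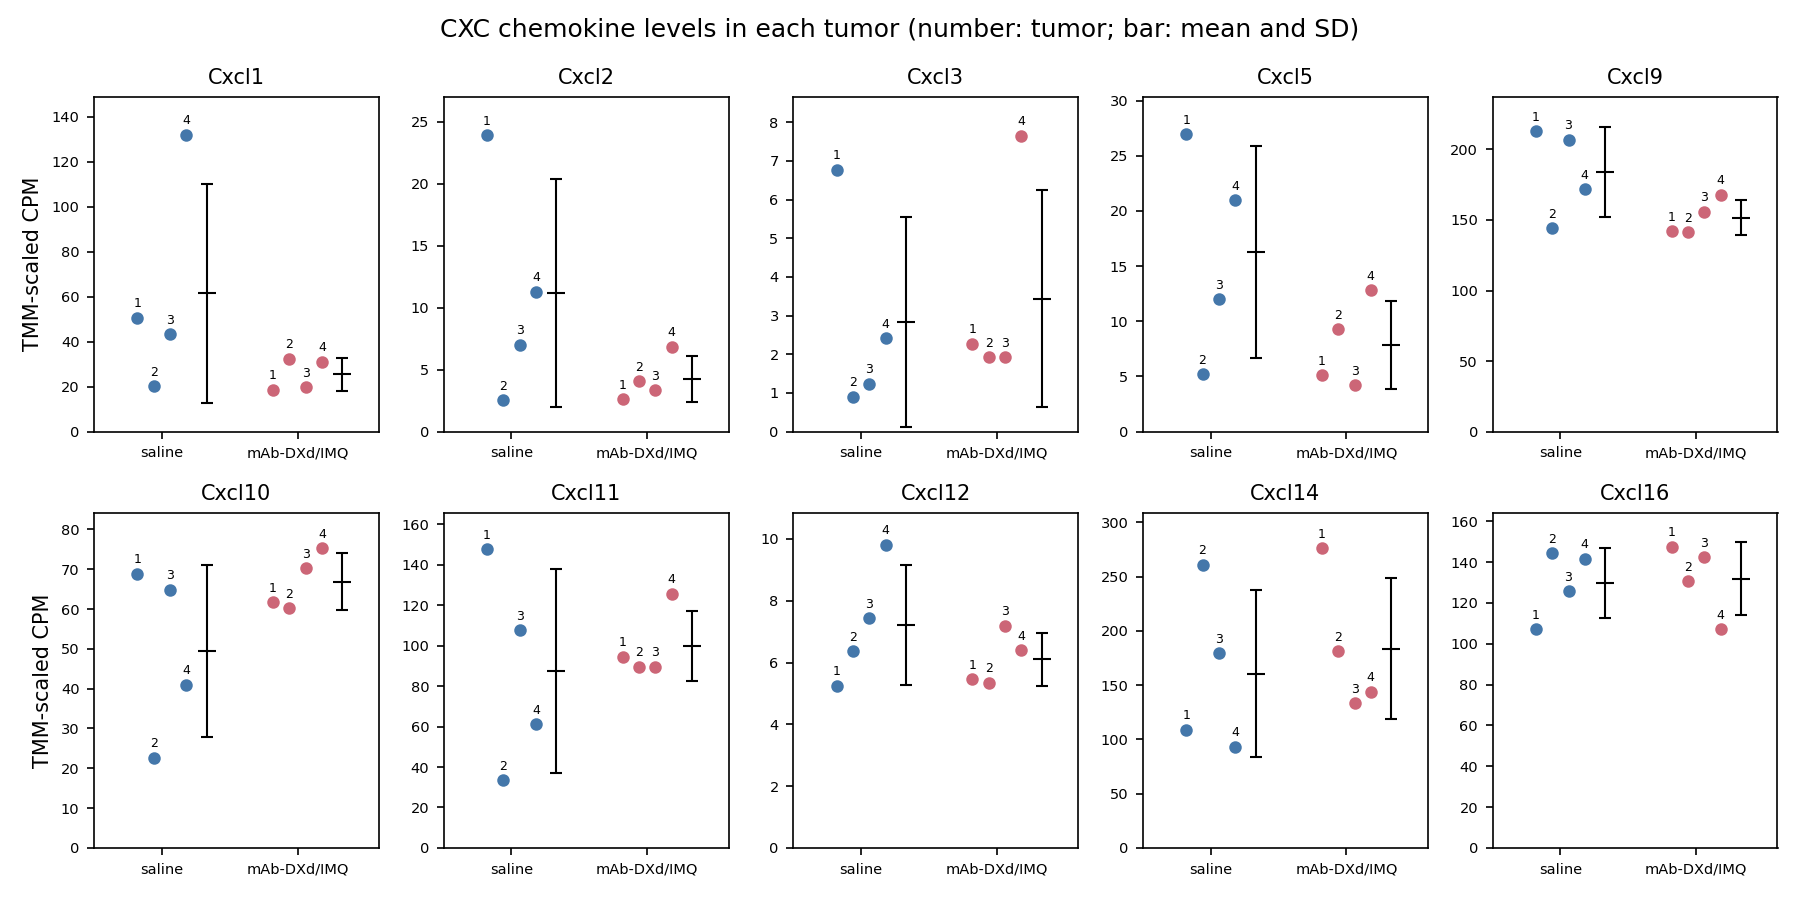
TMM-scaled CPM of the 10 CXC chemokines in each saline and mAb-DXd/IMQ tumor, with the tumor number above each point and the group mean and SD (n = 4) as a bar. Groups overlapped for every chemokine, and saline tumor 4 stood highest for Cxcl1 at 132 CPM.

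Among the neutrophil attractants, Cxcl1, Cxcl2 and Cxcl5 had lower means in mAb-DXd/IMQ tumors, by differences that did not pass the threshold, and Cxcl3 did not share this direction. Cxcl1, a main ligand of Cxcr2, had 50.7, 20.2, 43.2 and 132 CPM in saline tumors 1 to 4 and 18.8, 32.5, 19.8 and 31.1 CPM in mAb-DXd/IMQ tumors 1 to 4. Saline tumors 1, 3 and 4 lay above all treated tumors, and saline tumor 2 lay inside the treated range. The log2 fold change of Cxcl1 was -1.27 (SE 0.46, 95% interval -2.27 to -0.27, adjusted p = 0.167), and it was -0.57 without saline tumor 4.

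Cxcl2, the macrophage inflammatory protein that also binds Cxcr2, had 23.9, 2.53, 7.005 and 11.3 CPM in saline tumors 1 to 4 and 2.62, 4.09, 3.34 and 6.86 CPM in mAb-DXd/IMQ tumors 1 to 4. Saline tumor 1 was the highest and saline tumor 2 the lowest of all 8 tumors, so the treated tumors lay between them. Its log2 fold change was -1.41 (SE 0.55, adjusted p = 0.205), and it was -0.73 without saline tumor 1 and -1.74 without saline tumor 2. Cxcl5, a neutrophil attractant often made by epithelial cells, had 27.0, 5.21, 11.98 and 20.99 CPM in saline tumors 1 to 4 and 5.09, 9.29, 4.19 and 12.8 CPM in mAb-DXd/IMQ tumors 1 to 4. Saline tumors 1 and 4 exceeded every treated tumor, and saline tumors 2 and 3 lay within the treated range. The log2 fold change of Cxcl5 was -1.06 (SE 0.47, adjusted p = 0.260) and ranged from -1.39 to -0.71 with 1 tumor left out, the latter without saline tumor 1.

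Cxcl3, the least abundant neutrophil attractant per kilobase, had 6.77, 0.903, 1.24 and 2.41 CPM in saline tumors 1 to 4 and 2.27, 1.93, 1.92 and 7.64 CPM in mAb-DXd/IMQ tumors 1 to 4. A single tumor of each group, saline 1 and mAb-DXd/IMQ 4, stood well above the rest. For Cxcl3, the log2 fold change was 0.28 (SE 0.65, adjusted p = 0.862), and it was 1.16 without saline tumor 1, -0.02 without saline tumor 2 and -0.46 without mAb-DXd/IMQ tumor 4. Cxcl2 and Cxcl3 shared some 100-base stretches of transcript sequence, with 96.9% and 98.1% of their windows found in no other gene, so a small part of their counts could be split between them. Cxcl1 and Cxcl5 had 100% of such windows to themselves.

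The 4 neutrophil attractants lie together on chromosome 5 between positions 90759360 and 90905938 of build GRCm38, in the order Cxcl5, Cxcl3, Cxcl1 and Cxcl2 on the plus strand. Promoter sequences from RefSeq on build GRCm38.p6 matched 7 of the 10 chemokines and were read over the 250 bases before the annotated start site. They are shown for Cxcl1, Cxcl2 and Cxcl3 because these neighbors carry the same motif and had log2 fold changes of either sign, with capitals marking matches to the NF-kB consensus on either strand. The windows are chr5:90890995-90891244 for Cxcl1, chr5:90903649-90903898 for Cxcl2 and chr5:90785851-90786100 for Cxcl3, all on the plus strand and written 5′ to 3′.
Cxcl1: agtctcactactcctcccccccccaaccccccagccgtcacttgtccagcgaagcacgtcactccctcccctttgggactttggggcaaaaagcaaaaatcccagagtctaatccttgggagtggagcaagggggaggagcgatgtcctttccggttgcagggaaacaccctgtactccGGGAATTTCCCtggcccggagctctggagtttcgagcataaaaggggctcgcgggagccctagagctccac
Cxcl2: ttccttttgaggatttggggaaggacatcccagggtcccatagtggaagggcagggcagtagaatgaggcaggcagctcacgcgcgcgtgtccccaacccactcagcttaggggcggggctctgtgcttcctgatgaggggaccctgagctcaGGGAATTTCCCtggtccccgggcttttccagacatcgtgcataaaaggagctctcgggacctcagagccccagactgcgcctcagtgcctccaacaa
Cxcl3: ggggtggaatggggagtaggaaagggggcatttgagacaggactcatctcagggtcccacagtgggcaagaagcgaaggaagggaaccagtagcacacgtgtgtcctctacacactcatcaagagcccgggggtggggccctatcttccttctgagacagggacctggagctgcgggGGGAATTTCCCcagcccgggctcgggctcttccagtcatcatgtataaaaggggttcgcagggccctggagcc
Each held a pair of overlapping matches, GGGAATTTCC on the strand shown and another on the opposite strand, over the 10 bases that start 1 base further on in the sequence as printed. The former lay at -71 to -62 from the start site in Cxcl1, -97 to -88 in Cxcl2 and -73 to -64 in Cxcl3. The promoter of Cxcl5, the other neutrophil attractant, was not among those matched. The NF-kB consensus occurred in 4 of the 7 matched chemokine promoters and in 7.25% of the 32841 promoter windows of that length. A match describes the letters only.

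Genes that act upstream of the neutrophil attractants were read from a list of 19, of which 18 were tested, 0 passed with a higher level and 1 with a lower level, with 6 positive and 12 negative fold changes. An unadjusted p under 0.05 was found for 9 of the 18, against 18.9% of all tested genes, and groups without overlap for 5, against 13.1%. DESeq2 and the likelihood ratio test called 2 each and limma-voom 1, against 787, 685 and 174 of all 18511 tested genes. The gene that passed was Il1b, which encodes the cytokine interleukin-1 beta. It had 135, 110.0, 151 and 177 CPM in saline tumors 1 to 4 and 69.3, 52.2, 76.4 and 52.8 CPM in mAb-DXd/IMQ tumors 1 to 4. Every treated tumor lay below every saline tumor, which is the separation that Cxcl1, Cxcl2 and Cxcl5 lacked. The log2 value of its change was -1.19 (SE 0.17, adjusted p = 0.0201) and passed in 5 of 8 leave-one-out fits, with adjusted p up to 0.0846, and not without saline tumor 3, saline tumor 4 or mAb-DXd/IMQ tumor 4. The NF-kB subunit gene Nfkb1 had 223 ± 40.4 and 159.9 ± 2.54 CPM (SD, n = 4) in saline and mAb-DXd/IMQ tumors (log2 fold change -0.48, adjusted p = 0.0812). Zfp36, whose product destabilizes cytokine and chemokine mRNA, had 97.5 ± 58.8 and 41.5 ± 3.42 CPM (log2 fold change -1.23, adjusted p = 0.0891). Neither passed with the quasi-likelihood test, and the groups did not overlap for either gene. Zfp36 was called in 4 of 19 alternatives, those with DESeq2, with the likelihood ratio test, without a filter and without saline tumor 1, with adjusted p from 0.00474 to 0.219 over all of them, and Nfkb1 in 0 of 19. The adjusted p of Nfkb1 ranged from 0.0168 to 0.246 over its alternatives, and where it was under 0.05, with DESeq2 and the likelihood ratio test, the fold change was within the limit of 0.58. Without saline tumor 4, the log2 fold change of Zfp36 was -0.78. Of the other genes of the list with high counts, Rela, Il1r1 and Il17ra had log2 fold changes of -0.33, -0.25 and 0.29, and Il17a had 0 counts in all 8 tumors. Tnf, another inducer, had the highest fold change of the list, with 3.82 ± 1.16 and 6.61 ± 3.31 CPM (SD, n = 4; log2 fold change 0.79, adjusted p = 0.234).

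The summed level of neutrophil markers was also lower in mAb-DXd/IMQ tumors, as were the means of Cxcl1, Cxcl2 and Cxcl5. The 10 markers summed to 244, 92.8, 107 and 138 CPM in saline tumors 1 to 4 and to 55.0, 63.6, 62.3 and 80.0 CPM in mAb-DXd/IMQ tumors 1 to 4, with S100a9 as the most abundant gene. Saline tumors lay above all treated tumors in this sum, and the defining markers Ly6g and Camp were at 0 in some tumors. Ly6g had means of 0.122 and 0.172 CPM and Camp of 0.0450 and 0.175 CPM in saline and mAb-DXd/IMQ tumors, and both were too low to test. Of the 8 tested markers, 6 had negative fold changes, 2 had positive ones, Mmp8 (log2 fold change 0.32) and Ltf (0.30), and 1 passed the thresholds, as did 1.06% of all tested genes. An unadjusted p under 0.05 was found for 4 of the 8, against 18.9% of all tested genes, and groups without overlap for 3, against 13.1%. DESeq2 and the likelihood ratio test called 3 each and limma-voom 1, against 787, 685 and 174 of all 18511 tested genes. The gene that passed the quasi-likelihood test was Csf3r, the receptor for granulocyte colony-stimulating factor, with 41.5, 35.2, 30.1 and 35.4 CPM in saline tumors 1 to 4 and 14.996, 21.8, 22.9 and 22.1 CPM in mAb-DXd/IMQ tumors 1 to 4 (log2 fold change -0.80, SE 0.16, adjusted p = 0.0402). It passed in 1 of 8 leave-one-out fits, the one without mAb-DXd/IMQ tumor 1, with log2 fold changes of -0.87 to -0.68 over the 8, and not with upper-quartile scaling or library size alone. The calprotectin genes S100a8 and S100a9 had log2 fold changes of -1.74 (adjusted p = 0.0521) and -1.81 (adjusted p = 0.0598), and both were highest in saline tumor 1, as was Cxcl2. Without that tumor they were -1.35 and -1.18. S100a8 was called in 5 and S100a9 in 4 of 19 alternatives, DESeq2 and the likelihood ratio test among them. The fit without saline tumor 2 also called both (adjusted p = 0.0476 and 0.0431). In bulk tumors, fewer cells of a type and less RNA per cell cannot be told apart, and the part of neutrophil content in the chemokine values was not tested.

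The interferon-induced chemokines each had a higher mean level per kilobase over the 8 tumors than any of the neutrophil attractants. This order did not hold in saline tumors alone, where Cxcl1 had 32.8 CPM per kilobase, Cxcl10 21.9 and Cxcl11 23.1. The groups overlapped for each interferon-induced chemokine. Cxcl9, a Cxcr3 ligand that depends mainly on interferon-gamma, had 213, 144, 207 and 172 CPM in saline tumors 1 to 4 and 142, 142, 156 and 168 CPM in mAb-DXd/IMQ tumors 1 to 4. Saline tumors 1, 3 and 4 lay above all treated tumors and saline tumor 2 lay among them. For Cxcl9, the log2 fold change was -0.28 (SE 0.14, 95% interval -0.58 to 0.02, adjusted p = 0.300).

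Cxcl10, a Cxcr3 ligand induced by interferons of either type, had 68.9, 22.7, 64.8 and 41.0 CPM in saline tumors 1 to 4 and 61.8, 60.2, 70.2 and 75.3 CPM in mAb-DXd/IMQ tumors 1 to 4. The treated tumors were close together and reached the levels of saline tumors 1 and 3, and saline tumors 2 and 4 lay below them. Its log2 fold change was 0.44 (SE 0.28, adjusted p = 0.429), and it was 0.20 without saline tumor 2 and 0.64 without saline tumor 1. Cxcl11, the third Cxcr3 ligand, which the annotation lists as a polymorphic pseudogene, had 148, 33.5, 108 and 61.1 CPM in saline tumors 1 to 4 and 94.6, 89.7, 89.6 and 126 CPM in mAb-DXd/IMQ tumors 1 to 4. The order of the saline tumors was the same as for Cxcl10. Cxcl11 differed by a log2 fold change of 0.19 (SE 0.35, adjusted p = 0.818), which was -0.08 without saline tumor 2 and 0.56 without saline tumor 1. Cxcl10 and Cxcl11 overlap Art3 on the opposite strand, whose counts were 6.59% and 4.09% of theirs, and the strand setting of the counting is not given in the sources used here.

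Some ratios among the chemokines within a tumor separated the groups, whereas no single level did. The ratio of Cxcl9 to Cxcl10 CPM was 3.09, 6.36, 3.19 and 4.18 in saline tumors 1 to 4 and 2.30, 2.35, 2.22 and 2.23 in mAb-DXd/IMQ tumors 1 to 4. All treated tumors were below all saline tumors and lay within a narrow range. The ratio of Cxcl2 to Cxcl10 averaged 0.210 ± 0.120 (SD, n = 4) under saline and 0.0623 ± 0.0221 under mAb-DXd/IMQ, with lowest and highest values of 0.108 and 0.347 against 0.0424 and 0.0910. The ratio of Cxcl5 to Cxcl10 was 0.329 ± 0.150 and 0.117 ± 0.0539, and that of Cxcl1 to Cxcl10 was 1.38 ± 1.23 and 0.384 ± 0.118. Of the 45 ratios among the 10 chemokines, 7 had groups without overlap, and the others were Cxcl2 to Cxcl3, Cxcl2 to Cxcl11 and Cxcl5 to Cxcl11. This was 15.6% of the pairs, and 4.95% of the 185100 ratios of a chemokine to each other tested gene had groups without overlap. The 2 shares come from unlike sets and do not measure an excess among the chemokines. For single tested genes the share was 13.1%. A ratio within a tumor does not depend on library scaling. All of the 7 but Cxcl2 to Cxcl3 had Cxcl10 or Cxcl11 as the lower term. Log2 CPM of Cxcl10 and Cxcl11 correlated at r = 0.95 over the 8 tumors, as did that of Cxcl2 and Cxcl5. The 7 ratios are therefore not separate results. They were examined after the levels had been seen, and no test was made of them.

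**Figure D2:**
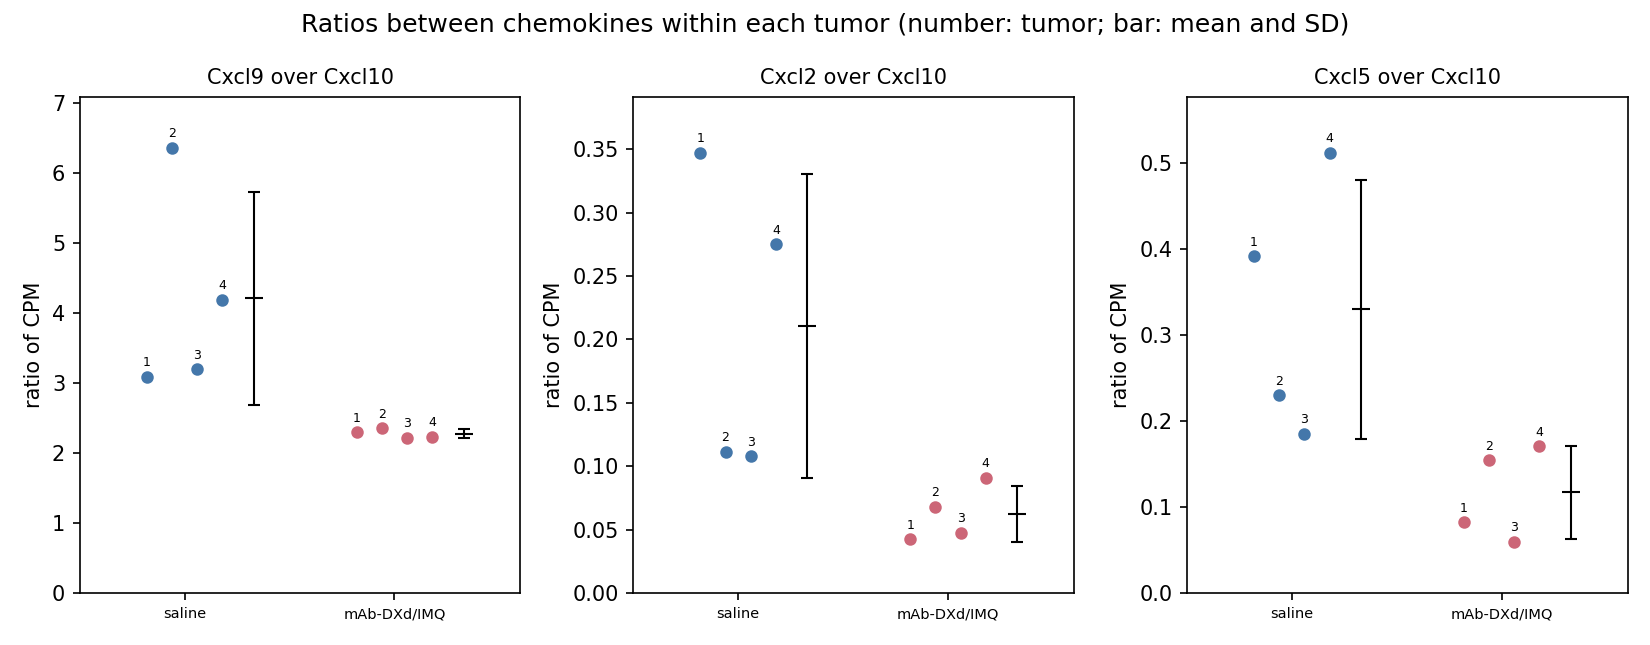
Ratios of TMM-scaled CPM within each tumor for Cxcl9, Cxcl2 and Cxcl5 over Cxcl10, with the tumor number above each point and the group mean and SD (n = 4) as a bar. The mAb-DXd/IMQ tumors lay between 2.22 and 2.35 for Cxcl9 over Cxcl10, below every saline tumor.

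The spread among tumors also differed between groups. On the log2 CPM scale, the SD of Cxcl10 was 0.74 among saline and 0.15 among mAb-DXd/IMQ tumors (n = 4 each), and that of Cxcl11 was 0.94 and 0.23. For Cxcl1 it was 1.11 and 0.42. The SD was smaller among mAb-DXd/IMQ tumors for 9 of the 10 chemokines, all but Cxcl16, and for 36.0% of the 18511 tested genes. The difference in spread was not tested, and saline tumor 2 held the lowest value of both Cxcl10 and Cxcl11. Among saline tumors, tumor 2 was the lowest for 7 of the chemokines and tumor 1 the highest for 6. The 10 SDs therefore rest on the same few tumors and are not separate observations.

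The 3 interferon-induced chemokines are neighbors on the minus strand of chromosome 5, between positions 92321347 and 92365485. The promoter windows of Cxcl9 at chr5:92328080-92328329 and Cxcl10 at chr5:92348890-92349139 are shown because the ratio of these genes separated the groups. They are written 5′ to 3′ on the minus strand from the same RefSeq source and build, with capitals for matches on either strand to the NF-kB consensus, to GAAANNGAAA, an interferon-stimulated response element (ISRE), and to TTCNNNGAA, an interferon-gamma activated site (GAS).
Cxcl9: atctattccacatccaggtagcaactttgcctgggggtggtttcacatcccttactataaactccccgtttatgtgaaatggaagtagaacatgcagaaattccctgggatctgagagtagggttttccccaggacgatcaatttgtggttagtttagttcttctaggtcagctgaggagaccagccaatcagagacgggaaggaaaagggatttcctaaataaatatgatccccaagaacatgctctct
Cxcl10: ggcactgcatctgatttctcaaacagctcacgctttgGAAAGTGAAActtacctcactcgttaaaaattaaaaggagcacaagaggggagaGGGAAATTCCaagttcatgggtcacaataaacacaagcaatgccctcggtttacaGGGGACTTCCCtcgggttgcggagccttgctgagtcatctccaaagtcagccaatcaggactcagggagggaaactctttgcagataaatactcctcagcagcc
Cxcl10 held 1 ISRE match, GAAAGTGAAA, at -213 to -204, and NF-kB matches in separate stretches at -159 to -150 and at -104 to -94, where matches overlapped each other. Cxcl9 held 0 matches to any of the motifs in this window, which says only that these letters are not in it. The ISRE letters were in 2 of the 7 matched chemokine promoters, Cxcl10 and Cxcl14, and in 2.98% of the 32841 windows, and the GAS letters in 1, Cxcl14, and in 7.02%. The NF-kB consensus found in the windows of Cxcl1, Cxcl2 and Cxcl3 was thus also in that of Cxcl10.

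Interferon genes around these chemokines gave values on either side of 0. Of 14 genes of interferon signaling, 13 were tested and 0 passed in either direction with edgeR's quasi-likelihood test. Fold changes were positive for 4 and negative for 9. Of the 13, 4 had an unadjusted p under 0.05, against 18.9% of all tested genes, and 3 had groups without overlap, against 13.1%. Those with an unadjusted p under 0.05 were Irf7, with a positive fold change, and Ifng, Jak2 and Tyk2, with negative ones. DESeq2 and edgeR's likelihood ratio test each called 1 of the 13, Irf7, and limma-voom called 0. Irf7, a transcription factor of the type I interferon response, had 173, 55.2, 143 and 119 CPM in saline tumors 1 to 4 and 279, 249, 287 and 272 CPM in mAb-DXd/IMQ tumors 1 to 4, with no overlap between groups (log2 fold change 1.15, SE 0.27, adjusted p = 0.0591). Irf7 was called in 5 of 19 alternatives, with adjusted p from 0.00126 to 0.175 over all of them. The fits without saline tumor 1 (log2 fold change 1.36, adjusted p = 0.0433) and without saline tumor 2 (0.90, adjusted p = 0.0345) were among those that called it. Saline tumor 2 was again the lowest, as for Cxcl10 and Cxcl11. Ifng, the gene of the inducer of Cxcl9, had 2.31 ± 0.696 and 1.14 ± 0.356 CPM (SD, n = 4; log2 fold change -1.02, adjusted p = 0.145). Tyk2 had 76.4 ± 3.84 and 56.1 ± 8.10 CPM (SD, n = 4; log2 fold change -0.44, adjusted p = 0.0824). The groups did not overlap for Ifng or Tyk2 either. Jak2, Irf1 and Stat2, signaling genes with high counts, had log2 fold changes of -0.45, -0.09 and -0.02.

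Of 20 interferon-stimulated genes, 1 passed with a higher level, 0 with a lower level, and 13 fold changes were positive and 7 negative. Over all tested genes, 1.06% passed. An unadjusted p under 0.05 was found for 5 of the 20, against 18.9% of all tested genes, and groups without overlap for 2, against 13.1%. DESeq2 and the likelihood ratio test called 2 each and limma-voom 1, against 787, 685 and 174 of all 18511 tested genes. Oas2, which makes an RNase L activator, had 81.8, 28.1, 92.5 and 78.3 CPM in saline tumors 1 to 4 and 139, 211, 251 and 302 CPM in mAb-DXd/IMQ tumors 1 to 4. All treated tumors exceeded all saline tumors. Its log2 fold change was 1.69 (SE 0.34, adjusted p = 0.0427), and it passed in 2 of 8 leave-one-out fits, those without saline tumor 2 or mAb-DXd/IMQ tumor 1, with log2 fold changes of 1.42 to 1.86 over the 8, and not with a gene length correction. For Isg15, a ubiquitin-like modifier, the log2 fold change came to 1.44 (adjusted p = 0.0591), and 4 of 19 alternatives called it, those with DESeq2, with the likelihood ratio test, without a filter and without saline tumor 1, with adjusted p from 0.000605 to 0.179 over all of them. The 4 genes of the list with the highest CPM were Tap1, Gbp2, Iigp1 and Psmb9, with log2 fold changes of 0.08, -0.44, -0.25 and 0.04. The list as a whole ran from -0.61 to 1.69 with a median of 0.16. Ifit1, Ifit2, Ifit3, Mx1, Mx2, Rsad2 and Usp18 had log2 fold changes of 0.53 to 0.93. Gbp3 and Igtp had 0.24 and 0.01, and Gbp5, Cd274, Socs1, Irgm1 and Ido1 had -0.61 to -0.03. None of these passed with edgeR's quasi-likelihood test.

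Cells that carry Cxcr3 or make Cxcl9 and Cxcl10 were followed by their markers. The 8 T cell markers summed to 76.7, 116, 109.7 and 100.3 CPM in saline tumors 1 to 4 and to 66.3, 55.2, 35.1 and 48.2 CPM in mAb-DXd/IMQ tumors 1 to 4, with Cd8a as the most abundant. All 8 fold changes were negative, with 7 at an unadjusted p under 0.05 (18.9% of all tested genes) and 5 without overlap between groups (13.1% of all tested genes). DESeq2 called 6, the likelihood ratio test 5 and limma-voom 3 of the 8, against 787, 685 and 174 of all 18511 tested genes. With edgeR's quasi-likelihood test, 2 markers, Cd4 and Cd8a, passed, as they did in 5 of 8 leave-one-out fits each but not without saline tumor 3, saline tumor 4 or mAb-DXd/IMQ tumor 4. The 6 NK cell markers summed to 68.2, 37.6, 51.4 and 55.3 CPM in saline tumors 1 to 4 and to 70.8, 77.2, 71.8 and 99.6 CPM in mAb-DXd/IMQ tumors 1 to 4. Prf1 was the most abundant, with means of 18.5 and 35.6 CPM. Of the 6 fold changes, 5 were positive, and 0 passed in edgeR's quasi-likelihood test. An unadjusted p under 0.05 was found for 4 (18.9% of all tested genes), of which Klrk1 had a negative fold change (log2 value -0.47). Groups without overlap were found for 1 (13.1% of all tested genes), and DESeq2 called 2. Klrb1c had means of 0.559 and 0.602 CPM in saline and mAb-DXd/IMQ tumors (log2 fold change 0.09). T cell sums were therefore lower in every treated tumor than in any saline tumor. NK cell sums were higher in every treated tumor, by a narrow margin between 68.2 CPM in saline tumor 1 and 70.8 CPM in mAb-DXd/IMQ tumor 1. Of the 10 macrophage and monocyte markers, 9 had negative fold changes and 0 passed, with 2 at an unadjusted p under 0.05, 1 called by DESeq2, and sums that overlapped. The 7 dendritic cell markers summed to 88.1, 109, 104 and 108 CPM in saline tumors 1 to 4 and to 86.0, 85.9, 152 and 89.2 CPM in mAb-DXd/IMQ tumors 1 to 4, with Itgax as the most abundant, and 0 of 7 passed with any of the 4 tests. Of these 7, Itgax alone had a positive fold change (log2 value 0.20), and 6 were negative with a median of -0.72 over the list, including -1.03 for Flt3, -1.17 for Xcr1 and -1.53 for Clec9a, with 3 at an unadjusted p under 0.05. The part of these cells in the chemokine values was not tested.

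The constitutively made chemokines had values within the spread between tumors. Cxcl14, a chemokine of epithelia and stroma and the most abundant of the 10 per kilobase, had 109, 261, 179 and 93.3 CPM in saline tumors 1 to 4 and 276, 181, 133 and 144 CPM in mAb-DXd/IMQ tumors 1 to 4. Saline tumor 2 and mAb-DXd/IMQ tumor 1 were the highest, and the groups overlapped over most of their range. Its log2 fold change was 0.19 (SE 0.32, adjusted p = 0.794), and it was 0.53 without saline tumor 2 and -0.08 without mAb-DXd/IMQ tumor 1. Cxcl12, the ligand of Cxcr4 that retains cells in bone marrow and stroma, had 5.25, 6.36, 7.43 and 9.82 CPM in saline tumors 1 to 4 and 5.47, 5.35, 7.19 and 6.41 CPM in mAb-DXd/IMQ tumors 1 to 4. Only saline tumors 3 and 4 exceeded the treated range, and the log2 fold change was -0.24 (SE 0.22, adjusted p = 0.595), which was -0.052 without saline tumor 4 and -0.37 without saline tumor 1. The 8 fibroblast markers, led by Col1a1, summed to 2844, 3842, 6683 and 7129.6 CPM in saline tumors 1 to 4 and to 5557, 4285, 7630.4 and 2873 CPM in mAb-DXd/IMQ tumors 1 to 4. Of the 8, 0 passed and 1 was called by DESeq2. Both an unadjusted p under 0.05 (18.9% of all tested genes) and groups without overlap (13.1%) were found for 2, Pdgfra (log2 fold change -0.48) and Fap (0.90). Cxcl12 followed the order of the fibroblast sum in the saline tumors but not in the treated tumors. Among those, tumor 4 had the lowest sum and not the lowest Cxcl12.

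Cxcl16, which is shed from the cell surface by the proteases Adam10 and Adam17 and also acts as a scavenger receptor, had 107, 144, 126 and 142 CPM in saline tumors 1 to 4 and 148, 131, 142 and 107 CPM in mAb-DXd/IMQ tumors 1 to 4. Both groups spanned the same range. The log2 fold change was 0.02 (SE 0.13, 95% interval -0.27 to 0.32, adjusted p = 0.947). Cxcl16 overlaps Zmynd15 on the opposite strand, whose counts were 34.2% of those of Cxcl16, and without a stated strand setting the reads of the overlapping part cannot be assigned to either gene. Adam10 had 277 ± 5.30 and 247 ± 39.7 CPM (SD, n = 4) in saline and mAb-DXd/IMQ tumors and Adam17 116 ± 10.6 and 105 ± 5.76 CPM. Of the 6 listed proteases that act on CXC chemokines, 0 passed with any of the 4 tests. Only 1 had an unadjusted p under 0.05, against 18.9% of all tested genes. Log2 fold changes ran from -0.33 to 0.82, the last for Mmp9, with 0.51 for Mmp12.

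The receptors of these ligands were compared in the same fit, and 1 of the 8 passed, with 1.06% passing among all tested genes. Of the 8 fold changes, 6 were negative. The same single receptor had an unadjusted p under 0.05 (18.9% of all tested genes) and groups without overlap (13.1%). Cxcr6, the receptor of Cxcl16 on activated and tissue-resident T cells, had 13.1, 23.5, 22.7 and 19.2 CPM in saline tumors 1 to 4 and 11.2, 7.75, 7.38 and 6.72 CPM in mAb-DXd/IMQ tumors 1 to 4. Every treated tumor lay below every saline tumor, with saline tumor 1 and mAb-DXd/IMQ tumor 1 closest to each other. Cxcr6 fell by 1.25 on the log2 scale (SE 0.22, adjusted p = 0.0293), while its ligand had a log2 fold change of 0.02. It passed in 2 of 8 leave-one-out fits, those without saline tumor 1 or mAb-DXd/IMQ tumor 1, with log2 fold changes of -1.43 to -1.15 and adjusted p up to 0.108 over the 8. The summed level of the T cell markers given above was also lower in every treated tumor than in any saline tumor. Its part in the Cxcr6 value was not tested.

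**Figure D3:**
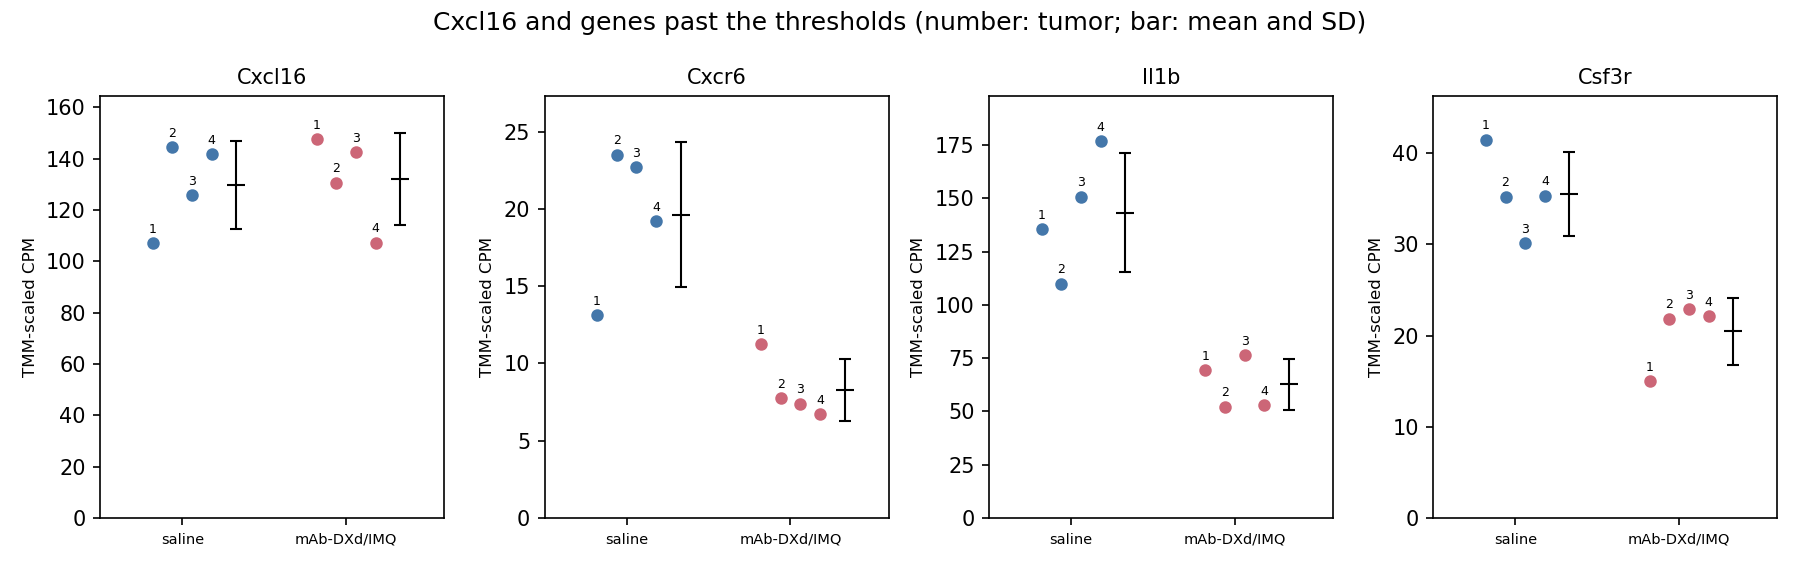
TMM-scaled CPM of Cxcl16, its receptor Cxcr6, and Il1b and Csf3r in each tumor, with the tumor number above each point and the group mean and SD (n = 4) as a bar. Cxcl16 covered 107 to 148 CPM over both groups, and the other 3 genes were lower in every mAb-DXd/IMQ tumor than in any saline tumor.

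The remaining receptors did not pass. Cxcr2, the receptor of the neutrophil attractants, had 7.01, 4.15, 3.22 and 6.38 CPM in saline tumors 1 to 4 and 1.49, 3.73, 2.42 and 4.83 CPM in mAb-DXd/IMQ tumors 1 to 4 (log2 fold change -0.74, SE 0.37, adjusted p = 0.313). Its groups overlapped, and its highest tumors, saline 1 and 4, were also the highest for Cxcl2 and Cxcl5. Cxcr3, the receptor of Cxcl9, Cxcl10 and Cxcl11, had 8.06 ± 3.60 and 6.32 ± 1.33 CPM (SD, n = 4; log2 fold change -0.35, adjusted p = 0.589). Cxcr4 and Ackr3, the signaling receptor and the scavenger of Cxcl12, both had log2 fold changes of -0.33 (adjusted p = 0.461 and 0.420). Single saline tumors moved these values. With 1 tumor left out, Cxcr3 ranged from -0.57 without saline tumor 2 to -0.12 without saline tumor 1, and Cxcr4 from -0.52 without saline tumor 1 to -0.15 without saline tumor 2. Ackr3 ranged from -0.43 without saline tumor 3 to -0.098 without saline tumor 1. Cxcr1, Cxcr5 and Ackr1 had means below 0.3 CPM in each group, and 82, 81 and 102 counts in all 8 tumors together.

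**Figure D4:**
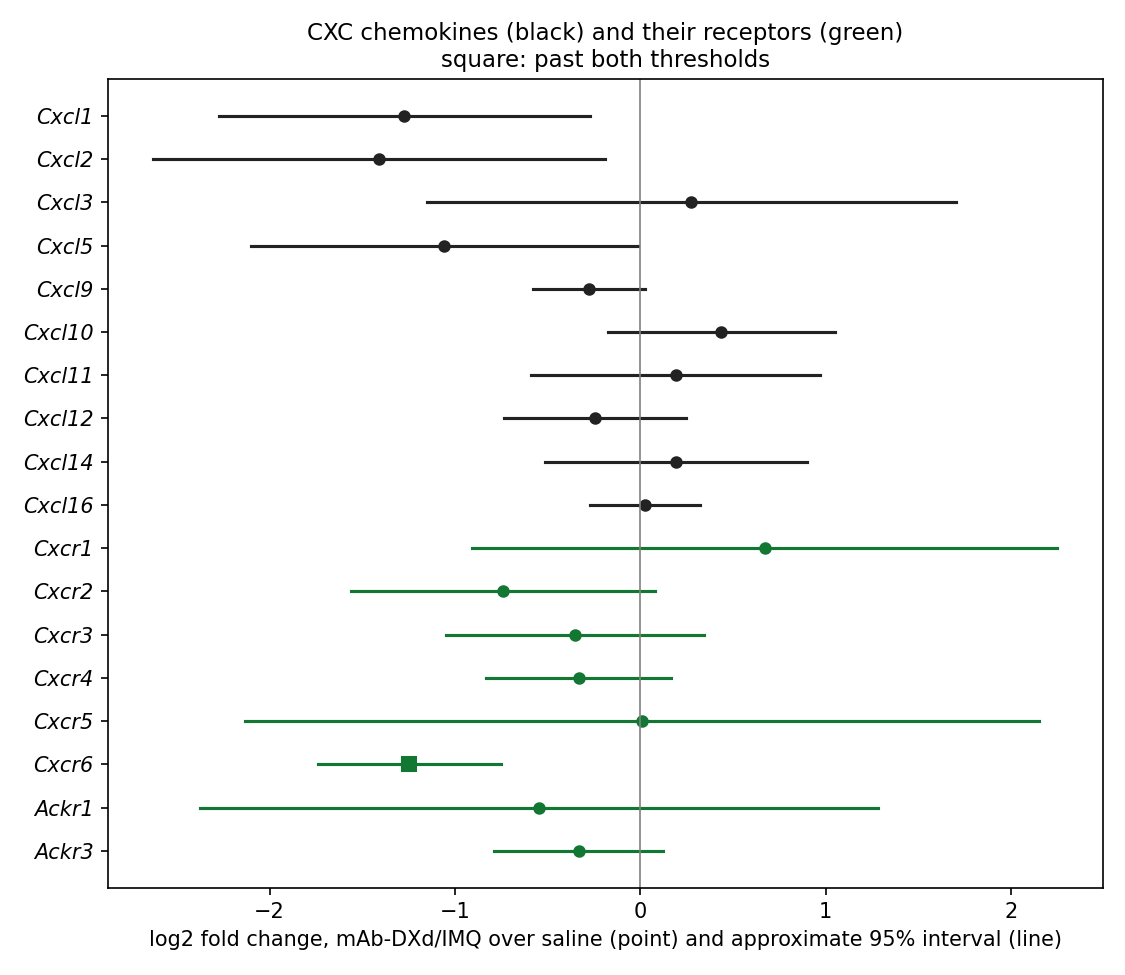
Log2 fold changes of mAb-DXd/IMQ over saline tumors (horizontal axis, points) with approximate 95% intervals (lines) for the 10 CXC chemokines in black and their 8 receptors in green. The square marks Cxcr6 at -1.25, which passed both thresholds, and the intervals of Cxcl1, Cxcl2 and Cxcl5 lay below 0 although their adjusted p did not pass.

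CXC ligands outside the 10 were few. Of 5 listed, 3 were tested and 0 passed with edgeR's quasi-likelihood test. Among the 3, 2 had an unadjusted p under 0.05, against 18.9% of all tested genes, and 0 had groups without overlap, against 13.1%. Cxcl13, the B cell attractant, had 4.94 ± 2.75 and 1.31 ± 0.827 CPM (SD, n = 4; log2 fold change -1.91, SE 0.58, adjusted p = 0.116), and 2 of its 19 alternatives called it, those with DESeq2 and the likelihood ratio test. The 6 B and plasma cell markers summed to 2.74, 9.97, 2.58 and 35.5 CPM in saline tumors 1 to 4 and to 1.63, 1.65, 1.88 and 1.24 CPM in mAb-DXd/IMQ tumors 1 to 4. They were led by Jchain, and Ms4a1 and Mzb1 were at 0 in some tumors. Of 4 tested markers, 0 passed the thresholds with edgeR's quasi-likelihood test and 2 were called by DESeq2, which called 787 of all 18511 tested genes. Fold changes were negative for all 4 (median log2 value -2.28). An unadjusted p under 0.05 held for 3, against 18.9% of all tested genes, and groups without overlap for 2, against 13.1%. Pf4, known from platelets and also made by macrophages, had 13.1 ± 5.18 and 22.7 ± 8.64 CPM (log2 fold change 0.79, adjusted p = 0.226). The platelet genes Gp1bb and Gp6 were at 0 in all 8 tumors, and the 5 platelet markers, led by Itga2b, summed to 3.90 to 7.60 CPM in saline and 2.68 to 6.86 CPM in mAb-DXd/IMQ tumors. Ppbp had 128 counts in all tumors together and a log2 fold change of 1.29 (adjusted p = 0.496), and Cxcl15 and Cxcl17 had 28 and 13 counts and were not tested.

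With edgeR's quasi-likelihood test, other tissue markers in the samples did not pass either, with 0 of 5 for tumor epithelium, 0 of 3 for the breast receptors, 0 of 6 for endothelium, 0 of 7 tested for skin keratinocytes, 0 of 4 tested for adipocytes and 0 of 5 for skeletal muscle. Fold changes were positive for 7 of 7 tested skin keratinocyte markers (median log2 value 1.04), 6 of 6 endothelial markers (0.41) and 5 of 5 epithelial markers (0.17), and negative for 4 of 4 tested adipocyte markers (-0.63) and 4 of 5 skeletal muscle markers (-0.36). An unadjusted p under 0.05 was found for 1 breast receptor and 1 endothelial marker, against 18.9% of all tested genes. DESeq2 called 1 endothelial marker and 0 of the others. The epithelial sums, led by Krt18, were 1682 to 2336 CPM in saline and 1883 to 3062 CPM in mAb-DXd/IMQ tumors. Skin keratinocyte markers, led by Krt14, reached 40.2 to 210.2 CPM and 109 to 531 CPM, and skeletal muscle markers, led by Acta1, 37.9 to 393 CPM and 67.5 to 301 CPM. Krt14 alone had means of 102 and 211 CPM, and Krt1, Krt5, Ivl and Lor were at 0 in some tumors. The keratinocyte sum is therefore mostly a reading of Krt14 and does not by itself show skin. Endothelial sums, led by Pecam1, were 82.5 to 197 CPM and 163 to 194 CPM, and adipocyte sums, led by Fabp4, 18.7 to 34.0 CPM and 15.3 to 28.2 CPM. All of these sums overlapped between groups, and saline tumor 2 had the lowest sums of the keratinocyte and muscle markers.

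The tumor-to-tumor pattern of the leading member of each class was compared with 14636 other genes by Pearson's r of log2 CPM over the 8 tumors, as a description. Cxcl1 was most like Meis2 (r = 0.95, Spearman's rho = 0.95), Dusp1 (r = 0.93, rho = 0.93) and 9430034N14Rik (r = 0.93, rho = 0.81). Cxcl9 was most like Ndst3 (r = 0.98, rho = 0.88), Kbtbd4 (r = 0.97, rho = 1) and Ablim1 (r = 0.96, rho = 0.95). Neither set held another CXC chemokine, since these were left out of the search. Cxcl14 was most like Lpar5 (r = 0.94, rho = 0.93), Mblac1 (r = 0.94, rho = 0.90) and Zfp689 (r = 0.93, rho = 0.95). Cxcl16 was most like Cdc42se2 (r = 0.98, rho = 1), Coa7 (r = 0.98, rho = 0.98) and Esf1 (r = 0.97, rho = 0.81). These genes are the highest of many compared over few tumors that share groups and libraries, and 7, 11, 5 and 42 genes had r above 0.9 with Cxcl1, Cxcl9, Cxcl14 and Cxcl16.

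**Figure D5:**
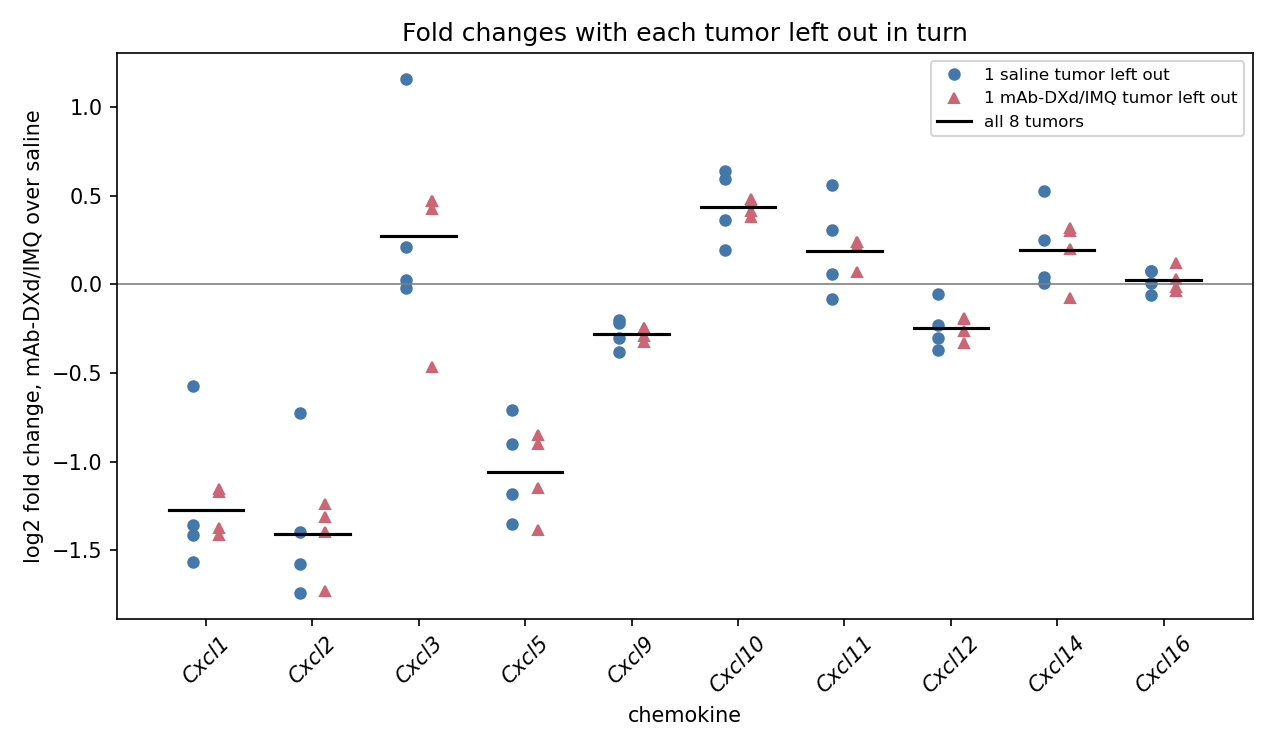
Log2 fold change of each CXC chemokine (vertical axis) with all 8 tumors as a black line and with 1 saline tumor (circles) or 1 mAb-DXd/IMQ tumor (triangles) left out. The values of Cxcl1, Cxcl2, Cxcl5, Cxcl9 and Cxcl12 stayed below 0 and those of Cxcl10 above it, and those of Cxcl3, Cxcl11, Cxcl14 and Cxcl16 took both signs.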

How the data were processed

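Bulk RNA of 8 tumors, 4 per group, was analysed, with groups taken from the sample titles. The authors deposited raw counts of reads per gene, without normalization, with a gene length. Their processing notes name HISAT2, HISAT, TopHat2 and mm39, whereas 98.3% of 54409 shared genes, and all 10 chemokines, had the coordinates of GENCODE on GRCm38, so GRCm38 is used here. The strand setting is not given in the sources used here. Tests ran in edgeR 4.0.16, DESeq2 1.42.0 and limma 3.58.1 under R 4.3.3, and figures in matplotlib 3.10.9 under Python 3.11.15.

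Genes were kept by filterByExpr (minimum count 10, minimum total count 15) and scaled by TMM (factors 0.939 to 1.07). mAb-DXd/IMQ was compared with saline in edgeR with glmQLFit and glmQLFTest and no covariates, with Benjamini-Hochberg adjustment over 18511 genes. Genes passed at FDR 0.05 and an absolute log2 fold change above 0.58. Adjusted p-values in the report are from this edgeR test, except the ranges over alternatives, which include DESeq2 and limma-voom. SEs and 95% intervals were approximated from the F statistic. The common biological coefficient of variation was 0.273. The steps were tested on simulated data. No libraries were duplicates. The labels name no batch.

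CPM are counts scaled to the TMM-adjusted library size, and levels between genes are per kilobase of the gene length. log2 CPM used a prior count of 2. The members and lists were chosen with earlier results of these data known. Named genes were the 10 members, the genes of each other list past both thresholds, up to 4 further genes per list with the highest mean CPM, and for the leading member of each class the 3 genes of at least 1 CPM with the highest r. Other genes named, such as Isg15, Ifng, Zfp36, Tnf and Cxcr2, were chosen after their values were seen. Alternatives covered other scalings, filters and tests, a gene length correction, a replicate block, no fold change limit, an exact permutation test and leaving out each tumor. Alternatives for genes outside the 10 chemokines were added after the data were seen.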

Additional observations from a re-analysis of the deposited data

Results flagged for a closer look

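Single tumors that lay far from the other 3 of their group were sought in 44 groups of 4 tumors, 2 groups for each gene examined, where chance gives about 2.2. The test compares the gap to the nearest tumor with the whole range of the group. Cxcl3 had 7.64 CPM in mAb-DXd/IMQ tumor 4, and the other treated tumors had 1.92 to 2.27 CPM. Cxcl11 had 126 CPM in mAb-DXd/IMQ tumor 4, against 89.6 to 94.6 CPM. The platelet basic protein gene Ppbp had 1.24 CPM in the same tumor, against 0.248 to 0.300 CPM. mAb-DXd/IMQ tumor 4 thus held 3 of the 6 cases and had the fewest counts of all tumors, 34591912. The chemokine receptor Cxcr1 had 0.365 CPM in saline tumor 1, against 0.0903 to 0.117 CPM. Cxcr4 had 31.0 CPM in mAb-DXd/IMQ tumor 1, against 22.3 to 23.5 CPM. Ackr3 had 66.2 CPM in saline tumor 1, against 36.3 to 41.3 CPM. The causes were not tested.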

How the results depend on the processing

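Every alternative called 0 of the 10 CXC chemokines, with adjusted p of at least 0.0712, the value of Cxcl1 with edgeR's likelihood ratio test. Cxcl1, Cxcl2, Cxcl5, Cxcl9, Cxcl10 and Cxcl12 kept their direction in all 20 alternatives. Cxcl3 changed sign without saline tumor 2 (-0.02) and without mAb-DXd/IMQ tumor 4 (-0.46), Cxcl11 without saline tumor 2 (-0.081), and Cxcl14 without mAb-DXd/IMQ tumor 1 (-0.076). The log2 fold change of Cxcl16 changed sign with the gene length correction (-0.052) and without saline tumor 1 (-0.059), mAb-DXd/IMQ tumor 1 (-0.035) or mAb-DXd/IMQ tumor 3 (-0.015), all far within its SE. With 1 tumor left out, log2 fold changes ranged from -1.57 to -0.57 for Cxcl1, -1.74 to -0.73 for Cxcl2, -0.46 to 1.16 for Cxcl3, -0.37 to -0.052 for Cxcl12, -0.081 to 0.56 for Cxcl11, -0.076 to 0.53 for Cxcl14 and -0.06 to 0.12 for Cxcl16.

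The count of genes past the thresholds, 197, depended on the setting. It was 358 without a filter, 787 with DESeq2, 685 with the likelihood ratio test and 122 with the gene length correction. It ranged from 10 to 203 with 1 tumor left out, and it was 111, 10 and 11 without saline tumor 2, 3 or 4 and 76, 88 and 12 without mAb-DXd/IMQ tumor 2, 3 or 4. The causes were not tested. Log2 fold changes were lower for longer genes across the tested genes, which are not independent (Spearman's rho = -0.21, and -0.03 after the correction). Higher genes made up 51.3% of the 197 and 66.5% of the 218 with upper-quartile scaling. The sample numbers were also used as a replicate block, with and without the gene length correction, which gave 14 genes in each fit and a log2 fold change of -0.054 for Cxcl16 with the correction. Same-numbered tumors came from different mice, their deviations from the group means correlated at r = -0.17, -0.05, 0.08 and -0.07, and 1 of 4 saline tumors correlated best with its own number, so the block does not describe a pairing of the samples. Cxcr1, Cxcr5 and Ackr1 rest on 82, 81 and 102 counts in all 8 tumors, which limits how small a difference could be seen.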
